A study of Mus musculus with 6 samples.

Results

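The genes described here are Trp53, which encodes the transcription factor p53, its regulators and known target genes, and the Btg and Tob family, in liver tumors and normal livers of C3H mice. The 34 genes were taken by name from the array annotation and are measured by 42 of the 55681 probes, which stand for 34741 genes in all. The samples were 3 macroscopic liver tumors and 3 normal livers from male C3H/HeN mice aged 74 to 75 weeks, a strain in which liver tumors arise spontaneously. The mice were untreated F2 offspring from the control arm of a breeding project and received a standard diet and tap water, and by the study's methods the tumors carried a Ha-ras mutation. The comparison asks which genes of the p53 pathway differ in expression between the tumors and normal liver.

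p53 is held at a low level by Mdm2, a ubiquitin ligase that is itself a p53 target, and is released by DNA damage, oncogene activity and other stress. It then acts mainly by binding DNA and raising the transcription of genes that stop the cell cycle, limit growth, repair DNA or start cell death. Btg2 is such a target, and its family, which includes Tob1 and Tob2, is antiproliferative and brings the Ccr4-Not deadenylase to messenger RNAs. Much of the control of p53 is exerted on the protein, which the arrays did not measure.

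Total RNA was labelled with Cy3 and each sample was hybridised to its own 1-color array. An expression value is the processed signal of a probe divided by the 75th percentile of the signals on its array, on a linear scale. A log2 fold change (log2FC) is the difference of the group means of log2 values, liver tumor minus normal liver, given with its standard error (SE). A gene is called where the adjusted p of limma, over the 24900 probes tested, is under 0.05, and the genes tested are those well above background in every sample of at least 1 group. The 75th percentile was a signal of 124 to 177 in the normal livers and of 171 to 183 in the tumors, and between 44.7% and 48.9% of spots were well above background. The 3 normal livers lay on slide 1 and the 3 tumors on slide 2, with a median local background of 42 to 45 on slide 1 and 22 to 23 on slide 2, and in every difference given here the tissue and its slide cannot be told apart. Nothing in the labels ties a normal liver to a tumor or says that each came from its own mouse, so the p-values measure the spread between these samples.

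The proximal promoters of a few members are printed with the motifs named below, and all of those members were called higher. Ei24, Ppm1d, Sesn1, Trp53 and Plk2 also held a motif, were not called and are not printed. RefSeq sequence of GRCm38.p6, 250 bases before to 50 bases after each annotated start, was on hand for 26 of the 34 genes in 33 windows of 300 bases. It was searched on both strands, with no mismatch allowed, for the p53 decamer, of which a full p53 response element holds 2 with a spacer of 0 to 13 bases, and for the cyclic AMP response element TGACGTCA, which was added after the Btg2 promoter had been read. In the stretches below, which run from 250 bases before the start up to it in the direction of transcription, capitals mark a p53 decamer, or for Btg2 the cyclic AMP response element. They lie at chr1:134079156-134079405 for Btg2, chr10:117710759-117711008 for Mdm2, chr11:40755287-40755536 for Ccng1, chr7:45466899-45467148 for Bax and chr6:67037408-67037657 for Gadd45a, each on the minus strand.
Btg2: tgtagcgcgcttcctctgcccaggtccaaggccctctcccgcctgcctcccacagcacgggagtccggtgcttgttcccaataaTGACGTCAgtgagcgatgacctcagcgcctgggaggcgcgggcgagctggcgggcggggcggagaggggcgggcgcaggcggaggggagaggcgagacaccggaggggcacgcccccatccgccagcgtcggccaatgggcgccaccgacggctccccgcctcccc
Mdm2: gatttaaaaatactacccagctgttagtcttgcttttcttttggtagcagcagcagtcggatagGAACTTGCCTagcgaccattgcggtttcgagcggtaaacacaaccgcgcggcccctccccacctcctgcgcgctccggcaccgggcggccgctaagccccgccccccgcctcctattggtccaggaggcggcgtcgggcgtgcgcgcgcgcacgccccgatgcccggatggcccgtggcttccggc
Ccng1: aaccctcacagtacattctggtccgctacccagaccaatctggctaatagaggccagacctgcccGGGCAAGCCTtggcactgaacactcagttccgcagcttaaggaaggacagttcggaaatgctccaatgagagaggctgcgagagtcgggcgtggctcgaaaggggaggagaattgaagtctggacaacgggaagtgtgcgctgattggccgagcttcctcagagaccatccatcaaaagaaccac
Bax: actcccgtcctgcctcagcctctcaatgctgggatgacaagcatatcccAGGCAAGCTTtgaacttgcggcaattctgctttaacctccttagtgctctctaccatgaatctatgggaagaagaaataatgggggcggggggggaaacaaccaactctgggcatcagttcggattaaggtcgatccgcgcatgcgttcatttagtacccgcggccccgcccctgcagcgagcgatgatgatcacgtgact
Gadd45a: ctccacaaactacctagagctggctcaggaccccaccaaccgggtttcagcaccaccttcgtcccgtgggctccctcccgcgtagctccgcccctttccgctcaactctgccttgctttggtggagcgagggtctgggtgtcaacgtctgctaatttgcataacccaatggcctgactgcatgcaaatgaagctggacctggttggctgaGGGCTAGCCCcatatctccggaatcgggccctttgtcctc

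The capitals begin 166 bases before the start in Btg2, 186 in Mdm2, 185 in Ccng1, 201 in Bax and 40 in Gadd45a. A p53 decamer was found in 11 of the 33 windows of the members (33.3%), which belong to 10 genes, and in 8.36% of the 32841 windows of all genes. With no mismatch allowed in either decamer, no window of a member held a full response element, which was found in 24 windows in all, or 0.0731%. The cyclic AMP response element was found in the windows of Btg2, Plk2 and Ppm1d, 3 of 33 or 9.09%, against 1.79% of all windows. Because that motif was added after the Btg2 promoter had been read, the match in Btg2 was known beforehand, and the 2 shares are not a fair comparison. The members had been listed as known p53 targets, as Trp53 and its regulators, or as the Btg and Tob family. A match is a description of letters, not of binding. Response elements of p53 often lie outside such windows, in introns or farther upstream.

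Of the 34 genes, 31 were tested, and 15 of them (48.4%) were called, 14 higher and 1 lower in the liver tumors. Over all 18566 genes tested, 34.2% were called, 13.1% as higher and 21% as lower. A change of 2-fold or more among those called was seen in 8 members, all higher, where 7.8% of all genes tested were called and higher by that much and 6.84% lower. The median log2FC was 0.68 over the 31 members, or 0.66 with 2 genes that were not above background in the normal livers taken at their bound, and -0.13 over all genes tested. Not tested were 3 members, Pmaip1, Eda2r and Rrm2b, of which Eda2r and Rrm2b were not well above background in any sample. The 3 normal livers and the 3 tumors did not overlap for 22 members, 18 with the tumors higher and 4 with the tumors lower, and for 51.8% of all genes tested, 18.3% with the tumors higher and 33.5% with the tumors lower. Among the 18 are Tnfrsf10b and Apaf1, which passed the filter through the tumors alone. Tnfrsf10b is also counted among the 14 called higher and the 8 changed 2-fold or more. The directions of calls over all probes depended on the scaling. Limma called 3112 probes higher and 5127 lower, and with spike-in controls used to scale the arrays 3049 higher and 1962 lower, a scaling that moved the median of all genes by 0.17 on the log2 scale. Among the members that scaling called 16 genes, 16 higher and 0 lower.

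**Figure D1:**
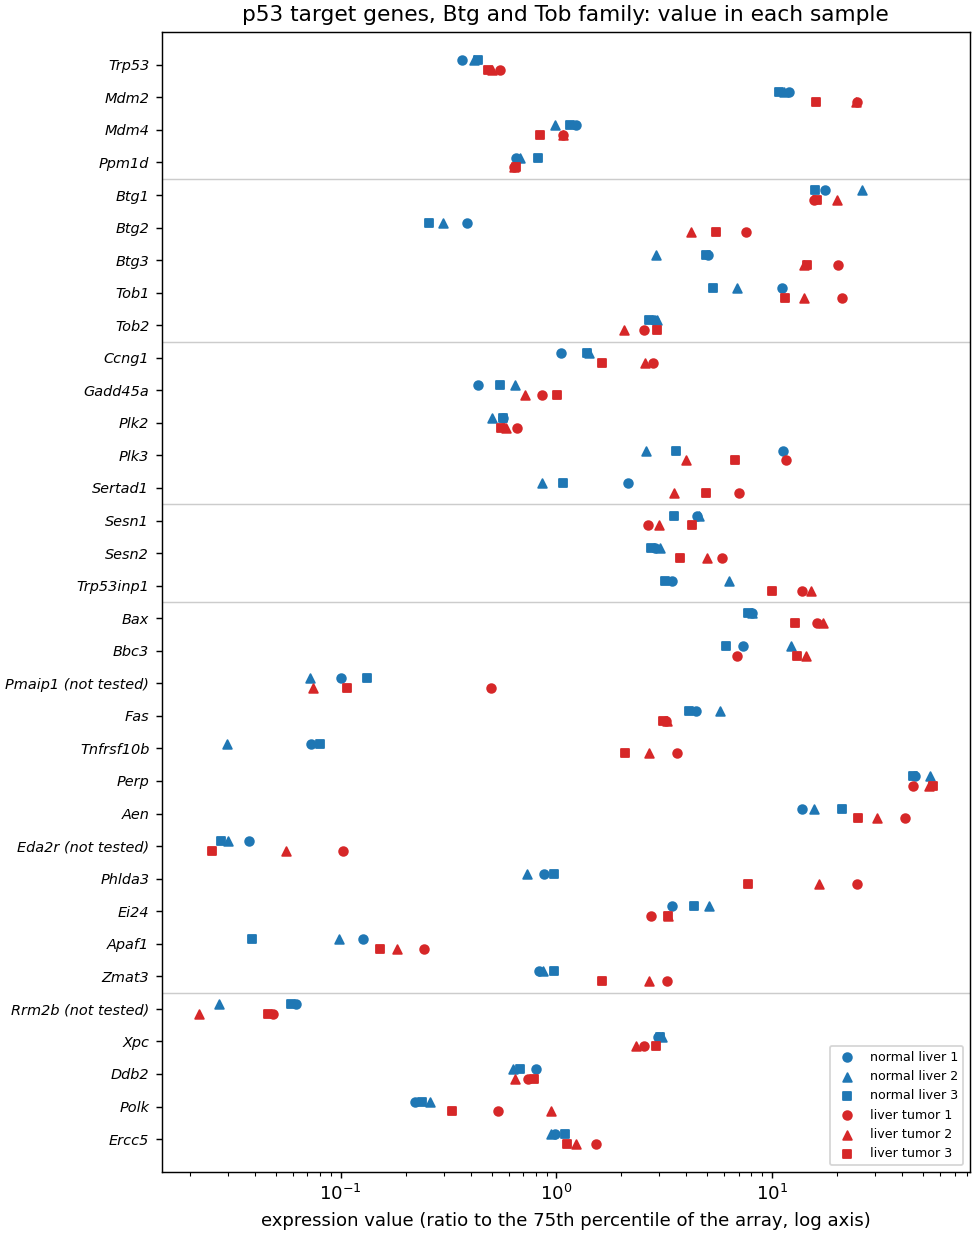
Expression value of each of the 34 genes in the 3 normal livers (blue) and the 3 liver tumors (red), on a log axis, with grey lines between the roles. Btg2, Phlda3 and Tnfrsf10b stand out by the gap between the 3 tumors and the 3 normal livers, while Perp, Plk2 and Ddb2 overlap.

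Among Trp53 and its regulators, Mdm2 was called and Trp53, Mdm4 and Ppm1d were not. The expression value of Mdm2 was 11.98, 11.28 and 10.68 in normal livers 1, 2 and 3, and 24.6, 24.4 and 16.0 in tumors 1, 2 and 3. All 3 tumors were above all normal livers, tumor 3 by the least. Mdm2 rose by a log2FC of 0.91 (SE 0.19, adjusted p = 0.0139), or 1.88-fold. Trp53 was at 0.365, 0.417 and 0.432 in the normal livers and 0.548, 0.503 and 0.483 in the tumors. Here too the tumors were all above the normal livers, but the gap was small and the log2FC of 0.34 (SE 0.12) had an adjusted p of 0.0696.

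Mdm4, the relative of Mdm2 that binds p53 and blocks its activity, was at 0.984 to 1.23 in the normal livers and 0.842 to 1.08 in the tumors, and its 2 probes gave log2FC of -0.18 and 0.12, neither called. Ppm1d encodes the phosphatase Wip1, which removes activating phosphates from p53 and is a p53 target itself. It was at 0.653, 0.679 and 0.820 in the normal livers and at 0.635, 0.633 and 0.653 in the tumors, a log2FC of -0.16 (adjusted p = 0.371). The highest tumor and the lowest normal liver were equal at 3 digits, and the sign of Ppm1d turned with spike-in scaling.

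In the Btg and Tob family, 2 of 5 genes were called (40.0%, against 34.2% of all genes tested), both higher. Btg2 was at 0.386, 0.297 and 0.257 in the normal livers and 7.52, 4.19 and 5.48 in the tumors. The lowest tumor was above the highest normal liver by more than the whole spread of either group on a log scale. The mean was 0.313 ± 0.0658 in the normal livers and 5.73 ± 1.68 in the tumors (SD, n = 3), and the log2FC was 4.17 (SE 0.25, adjusted p = 0.000216), or 18.0-fold. It ranked 160 of 18566 by the size of the rise. Btg2 is read by 1 probe, and over the alternatives tried its log2FC lay between 3.08 and 4.38.

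Btg3, a family member that also restrains cell division, was at 5.04, 2.90 and 4.90 in the normal livers and at 20.2, 14.1 and 14.5 in the tumors. Every tumor was above every normal liver, and Btg3 rose by 1.95 on the log2 scale (SE 0.26, adjusted p = 0.00341), or 3.86-fold. Tob1, an antiproliferative partner of the deadenylase, was at 11.1, 6.86 and 5.32 in the normal livers and at 21.1, 14.0 and 11.4 in the tumors. The groups of Tob1 did not overlap, but normal liver 1 nearly reached tumor 3, and the log2FC of 1.02 (SE 0.33) had an adjusted p of 0.0558. Tob1 was called without normal liver 1, at a log2FC of 1.31 and an adjusted p of 0.0320, and with normexp correction, spike-in scaling, the stricter filter or a trend in the fit.

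Btg1 and Tob2 were not called. Btg1 was at 17.5, 25.9 and 15.8 in the normal livers and 15.7, 19.96 and 16.1 in the tumors, which overlap, with a log2FC of -0.17 (SE 0.21). Its second, dim probe gave 0.95 (SE 0.39, adjusted p = 0.106), and the sign of Btg1 turned with spike-in scaling, with the mean of its probes and without normal liver 2. Tob2 was at 2.69 to 2.92 in the normal livers and 2.05 to 2.93 in the tumors, a log2FC of -0.18 (SE 0.15). The members of the family thus ran from overlapping groups for Btg1 and Tob2 to the 18.0-fold rise of Btg2.

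**Figure D2:**
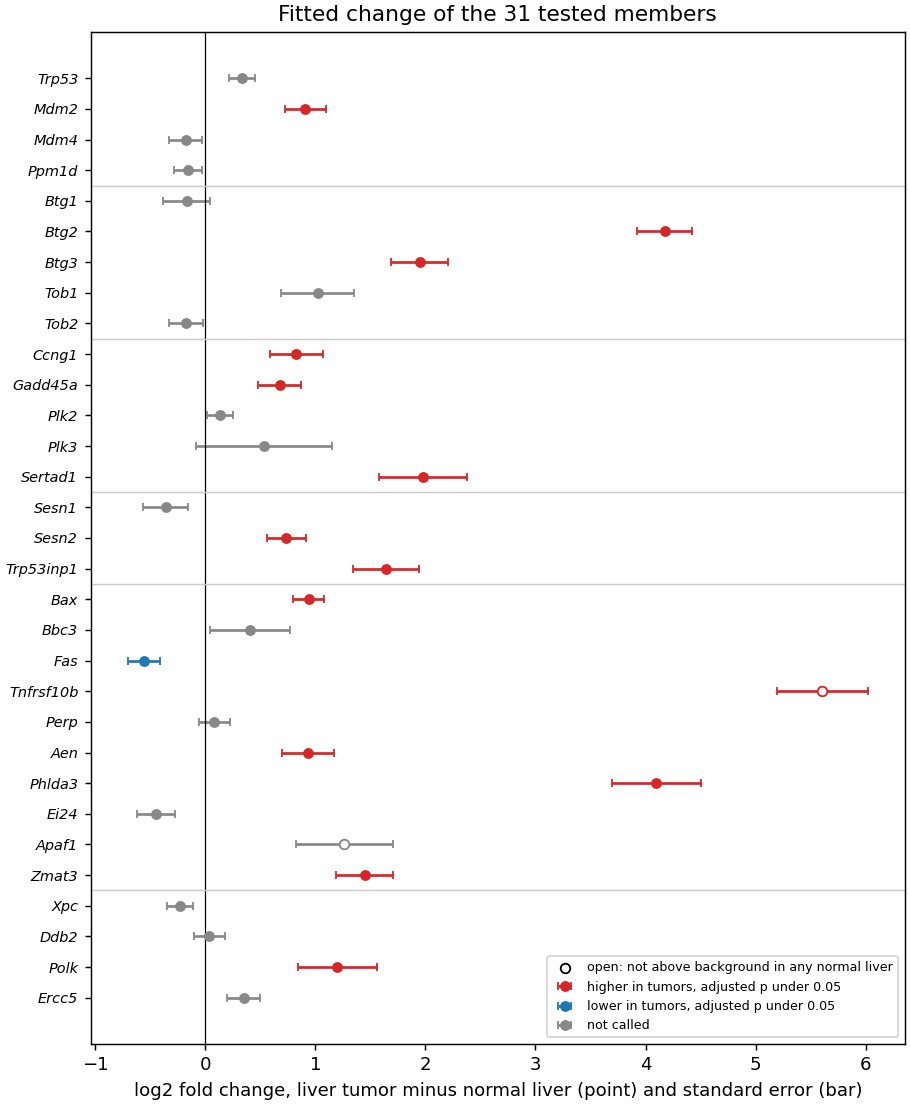
Log2 fold change of the 31 tested genes, liver tumor minus normal liver, with the standard error from limma as a bar, colored by call. Open circles are genes not above background in any normal liver. Of the 31 points 14 are red, called higher, and 1 is blue, Fas, at -0.55.

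Of the genes that act on the cell cycle and of the stress kinases, 3 of 5 were called, all higher. The share called over all genes tested was 34.2%, with 13.1% called higher. Sertad1, a cofactor of E2F and Cdk4, was at 2.15, 0.854 and 1.07 in the normal livers and 7.01, 3.48 and 4.93 in the tumors. The groups did not overlap, with normal liver 1 the highest of its group, and Sertad1 rose by 1.98 on the log2 scale (SE 0.40, adjusted p = 0.0125). Ccng1, which encodes cyclin G1, a binding partner of protein phosphatase 2A and of Mdm2, was at 1.05, 1.42 and 1.39 in the normal livers and 2.79, 2.56 and 1.62 in the tumors. Tumor 3 was close to the normal livers. Ccng1 rose by 0.83 (SE 0.24, adjusted p = 0.0395), a call that was lost without any 1 sample but tumor 3, at adjusted p of 0.0750 to 0.110.

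Gadd45a, a stress sensor that inhibits Cdk1, was at 0.432, 0.641 and 0.545 in the normal livers and 0.857, 0.713 and 1.01 in the tumors. It rose by 0.68 (SE 0.20, adjusted p = 0.0400), and tumor 2 lay just above normal liver 2. The call of Gadd45a was lost without normal liver 1 or 3 or without tumor 1 or 3 (adjusted p 0.0856 to 0.101), and with normexp background correction, where the log2FC was 0.32 (adjusted p = 0.0742). The stress kinases Plk2 and Plk3 were not called. Plk2 was at 0.503 to 0.563 and 0.554 to 0.659, a log2FC of 0.14. Plk3 was at 11.2, 2.59 and 3.56 in the normal livers and 11.6, 4.0 and 6.73 in the tumors, so its spread within each group exceeded the difference between them (log2FC 0.53, SE 0.62). Normal liver 1, the high sample of Plk3, Sertad1 and Tob1, was also the high normal liver of Jun, at 9.51 against 3.75 and 4.93, and of Gadd45g, at 30.4 against 6.30 and 5.87. Other related genes went the other way. Normal liver 1 was the lowest normal liver of Egr1, at 0.555 against 1.17 and 2.10, and of Gadd45b, at 0.509 against 0.817 and 0.773. The part of that liver in these results was not tested beyond leaving it out. Without it Plk3 stayed uncalled, Sertad1 stayed called and Tob1 became called. Apaf1 and Ei24 were gained as well, and Aen, Ccng1, Fas, Gadd45a, Polk and Sesn2 were lost.

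Of the 3 genes of metabolism and antioxidant defence, 2 were called (66.7%, against 34.2% of all genes tested), both higher. Trp53inp1, which promotes autophagy and p53 activity, was at 3.42, 6.30 and 3.18 in the normal livers and 13.8, 15.1 and 9.94 in the tumors. All tumors were above all normal livers, and the rise was 1.64 on the log2 scale (SE 0.30, adjusted p = 0.00902), with 1.11 (adjusted p = 0.0178) by its second probe. The sestrins restrain mTORC1 when amino acids or energy are short. Sesn2 was at 2.86, 3.0 and 2.74 in the normal livers and 5.83, 4.97 and 3.75 in the tumors. It rose by 0.74 (SE 0.18, adjusted p = 0.0220), with tumor 3 again the lowest of the tumors, and was not called without any 1 of the normal livers or without tumor 2 (adjusted p 0.0586 to 0.0651). Sesn1 was at 4.46, 4.56 and 3.52 in the normal livers and 2.65, 3.0 and 4.26 in the tumors, overlapping groups with a log2FC of -0.36 (adjusted p = 0.228).

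The largest role group was cell death, with 12 genes, of which 10 were tested and 6 called, 5 higher and 1 lower. Of all genes tested, 34.2% were called, 13.1% as higher and 21% as lower. Phlda3 and Tnfrsf10b, with Btg2, had the largest rises of all members. Phlda3, which competes with Akt for membrane lipids, was at 0.876, 0.733 and 0.974 in the normal livers and 24.7, 16.4 and 7.75 in the tumors. The tumors differed among themselves, from 7.75 to 24.7, but the lowest of them was far above every normal liver. Phlda3 rose by 4.10 on the log2 scale (SE 0.41, adjusted p = 0.00126), or 17.1-fold, and ranked 169 of 18566. Tnfrsf10b, the mouse death receptor for the ligand TRAIL, stayed near background in the normal livers, where its value was 0.0727, 0.0298 and 0.0807 and no spot was well above background, and was at 3.61, 2.69 and 2.08 in the tumors. The tumors were at least 24.0-fold higher, the bound being set by the lowest signal well above background in each normal liver. That bound was not tested. The fitted log2FC of 5.61 (SE 0.41, adjusted p = 0.000433) rests on normal values not above background. Tnfrsf10b passed the filter through the tumors alone. With normexp background correction its log2FC was 2.61, and it was called both ways.

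Zmat3, an RNA-binding zinc finger protein, was at 0.826, 0.863 and 0.975 in the normal livers and 3.27, 2.67 and 1.62 in the tumors, and rose by 1.45 (SE 0.26, adjusted p = 0.00852). Bax, which opens the mitochondrial outer membrane, was at 8.03, 8.05 and 7.70 in the normal livers and 16.1, 17.1 and 12.8 in the tumors. The normal livers of Bax were nearly equal and all tumors were above them, a rise of 0.94 (SE 0.14, adjusted p = 0.00474). Aen, an apoptosis-enhancing nuclease, was at 13.7, 15.6 and 21.0 in the normal livers and 41.2, 30.7 and 24.9 in the tumors. It rose by 0.94 (SE 0.24, adjusted p = 0.0267), and by 0.95 with its second probe (adjusted p = 0.0313). Without normal liver 1 or 2, or tumor 1 or 2, Aen was not called (adjusted p 0.0564 to 0.0818).

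Fas, a death receptor, was the one member called lower. It was at 4.42, 5.70 and 4.11 in the normal livers and 3.23, 3.27 and 3.11 in the tumors, so the groups were apart, with the tumors nearly equal. The log2FC was -0.55 (SE 0.15, adjusted p = 0.0308), and the call was lost with spike-in scaling, and when any 1 sample other than normal liver 3 was left out (adjusted p 0.0598 to 0.0746). Ei24, an endoplasmic reticulum protein, was at 3.43, 5.07 and 4.32 in the normal livers and at 2.75, 3.28 and 3.29 in the tumors, apart but not called (log2FC -0.45, adjusted p = 0.0911). It was called lower without normal liver 1, at a log2FC of -0.60 and an adjusted p of 0.0443.

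The BH3-only genes Bbc3, which encodes Puma, and Pmaip1, which encodes Noxa, were not called. Bbc3 was at 7.33, 12.2 and 6.07 in the normal livers and 6.89, 14.3 and 12.9 in the tumors, with overlapping groups (log2FC 0.41, SE 0.36). Pmaip1 was well above background in 1 of 6 samples, tumor 1, at 0.499. Perp, a desmosomal membrane protein, was at 45.6, 54.0 and 44.9 in the normal livers and 44.7, 53.2 and 55.4 in the tumors, with overlapping groups and a log2FC of 0.08 (SE 0.14). Apaf1, the scaffold of the apoptosome, was above background only in the tumors, at 0.243, 0.182 and 0.152, and was not called (adjusted p = 0.0703). Without normal liver 1 its adjusted p was 0.0493, and quantile normalization and spike-in scaling also called it.

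Of the DNA repair genes and Rrm2b, which encodes the p53-induced subunit of ribonucleotide reductase, 1 of 4 tested was called. That share was 25.0%, against 34.2% of all genes tested. Polk, a translesion DNA polymerase, was at 0.222, 0.258 and 0.239 in the normal livers and 0.538, 0.942 and 0.328 in the tumors. The tumors spread widely above close normal livers, and Polk rose by 1.20 (SE 0.36, adjusted p = 0.0442). The call of Polk was lost without any 1 sample but tumor 3, at adjusted p of 0.0579 to 0.113, and its second probe was too dim to be tested. With normexp background correction the log2FC of Polk was 0.48 (adjusted p = 0.0843) and it was not called. The damage recognition genes Xpc and Ddb2 and the nuclease gene Ercc5 had log2FC of -0.22, 0.04 and 0.35, with adjusted p of 0.187, 0.859 and 0.117. The tumors were all below the normal livers for Xpc, all above them for Ercc5, and overlapped them for Ddb2.

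The 14 members called higher did not rise equally in the 3 tumors. The lowest tumor was tumor 3 for 10 of them and tumor 2 for 4, which were Btg2, Btg3, Gadd45a and Sertad1, and tumor 1 for 0. The highest was tumor 1 for 10, tumor 2 for 3 and tumor 3 for 1. Over the 2441 genes called higher, the lowest tumor was tumor 3 for 47.6%, tumor 2 for 39.7% and tumor 1 for 12.7%, and the highest was tumor 1 for 61.2%. In both sets tumor 1 was most often the highest and tumor 3 most often the lowest. The median SD of log2 values over the tested members was 0.21 in the normal livers and 0.32 in the tumors, against 0.16 and 0.18 over all genes tested. The members share each sample, so these counts describe 3 tumors and are not 14 separate observations.

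**Figure D3:**
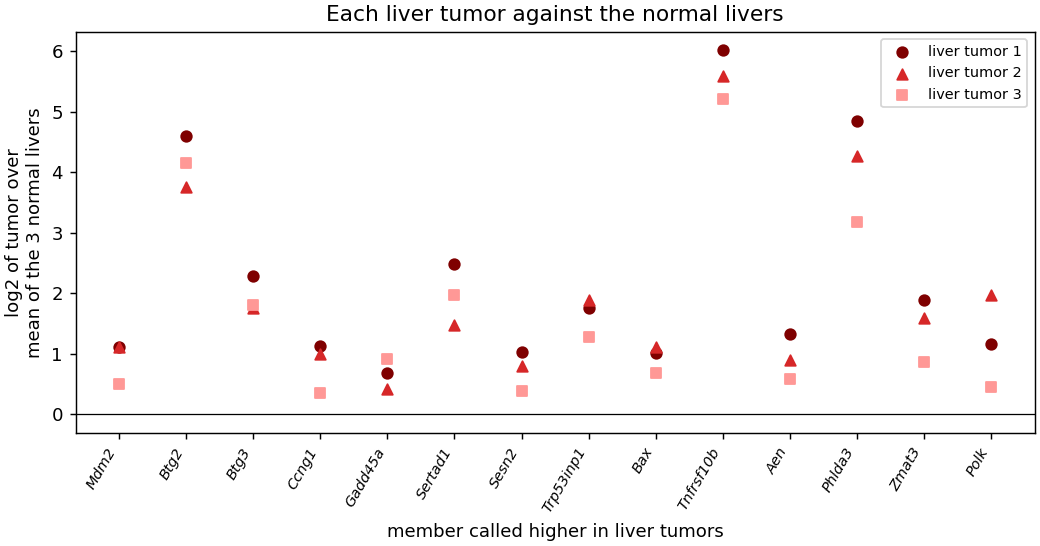
Log2 of the value in each liver tumor over the mean of the 3 normal livers (log2 scale), for the 14 genes called higher. Tumor 3 (light squares) is the lowest for 10 genes, and tumor 2 (triangles) for Btg2, Btg3, Gadd45a and Sertad1.

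Other genes of the pathway were taken as 5 lists. Of 23 upstream regulators of p53, 22 were tested and 8 called (36.4%, against the 34.2% of all genes tested), 6 higher and 2 lower, with a median log2FC of 0.13. Cdkn2a, whose products include p19Arf, an inhibitor of Mdm2, and the Cdk inhibitor p16Ink4a, was at 0.555, 0.734 and 1.56 in the normal livers and 26.0, 20.5 and 9.78 in the tumors. All tumors were far above all normal livers, tumor 3 by the least, and the rise was 4.33 on the log2 scale (SE 0.49, adjusted p = 0.00203). Trp63, a relative of Trp53, rose by 1.39 and Ppp1r13b, which encodes the p53 cofactor Aspp1, by 1.33. Cdkn2a has 2 probes and Trp63 has 4, and only the brightest tested probe of each is given. The deacetylase gene Sirt1 fell by 1.06 and the ubiquitin ligase gene Cop1 fell by 0.39.

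Of 30 other p53 target genes, 27 were tested and 12 called (44.4%), 8 higher and 4 lower, with a median log2FC of 0.01. Cdkn1a, which encodes the Cdk inhibitor p21, was at 1.92, 1.35 and 1.01 in the normal livers and 7.95, 9.11 and 4.78 in the tumors. It rose by 2.35 (SE 0.32, adjusted p = 0.00362), or 5.09-fold, by the brightest tested of its 3 probes. Gdf15, a secreted stress factor, rose by 2.57 and the adenylate kinase gene Ak1 by 1.85. Sco2, needed to assemble cytochrome c oxidase, fell by 1.41, the metalloreductase gene Steap3 fell by 1.21 and Triap1 fell by 0.54. The open point farthest to the right in the plot of the lists is Psrc1, picked out after its values were seen, which was not above background in any normal liver and rose at least 44.9-fold.

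None of the 15 tested of 16 genes of the Ccr4-Not deadenylase and the partners of Btg and Tob was called by limma. At an unadjusted p under 0.05 there were 3, Cnot2, Cnot3 and Cnot6. The log2FC of the list ran from -0.50 to 0.26 with a median of -0.20. Normexp correction and the stricter filter each called 1 gene and quantile normalization 2, while spike-in scaling, no filter and each sample left out in turn called 0. Immediate early genes, transcribed within minutes of a stimulus, are given because Btg2 is also counted among them. Of 25, 23 were tested and 15 called (65.2%), 14 higher and 1 lower, with a median log2FC of 1.09, or 0.98 with 3 genes at their bound. Egr1 rose by 4.63, Atf3 by 2.03 and Nr4a1 by 1.92, and Klf2 fell by 0.57. Of 13 paralogs of the members, 10 were tested and 3 called (30.0%): Sertad3 rose by 0.63, Plk1 was higher with only 1 normal liver above background, and Trp53inp2 fell by 1.10, opposite in sign to Trp53inp1.

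**Figure D4:**
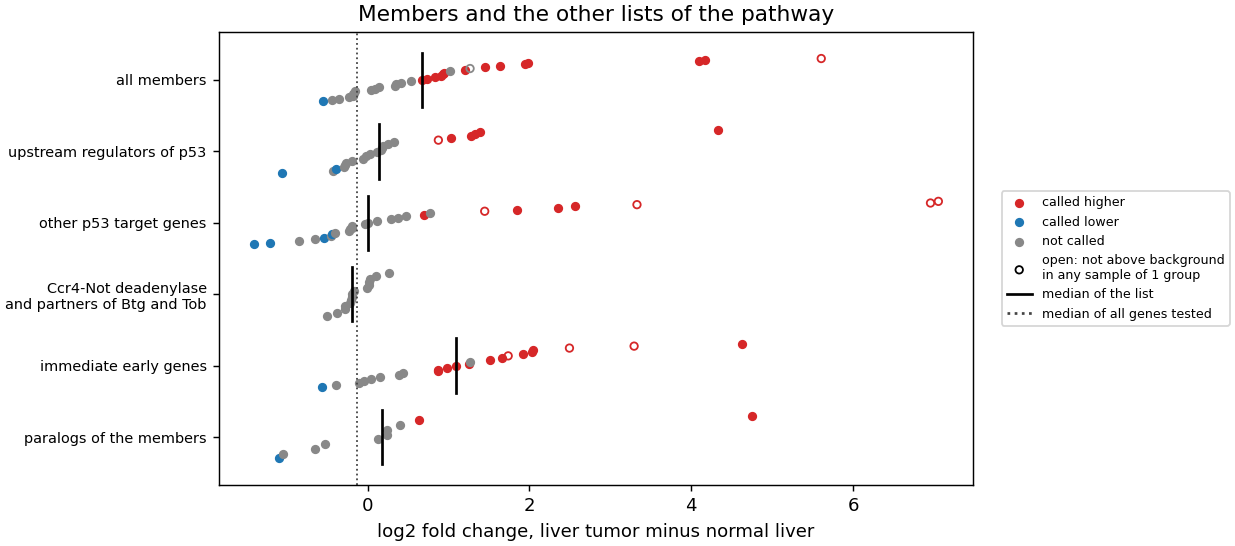
Log2 fold change, liver tumor minus normal liver, of each tested gene of the 34 members and of 5 other lists, colored by call. The black bars mark list medians, 0.68 for the members and -0.20 for the Ccr4-Not list, and the dotted line marks the median of all genes tested, -0.13.

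The tissue was checked by marker genes, and fewer cells of a type cannot be told apart from less RNA per cell in these bulk samples. Of 10 hepatocyte markers 1 was higher and 3 lower, and their summed value was 7585 to 8306 in the normal livers and 7443 to 7911 in the tumors. Of 8 markers of proliferating cells 7 were tested and all 7 called higher, with sums of 0.638 to 0.929 and 8.55 to 14.2, lowest in tumor 3. Only Mki67 was well above background in every sample. Top2a, Ccnb1, Cdk1, Bub1, Ccna2 and Plk1 passed the filter through the tumors alone, which favors calls in that direction. Aurkb was not above background in any sample. Of 8 lymphocyte markers 4 were tested and 1, Cd4, was called higher, with sums of 66.1 to 70.0 and 141 to 245, of which Cd4 alone made 58.8 to 60.9 and 134 to 235. The other 7 lymphocyte markers summed to 7.28 to 9.102 and 7.37 to 9.44, and Cd8a was not above background in any sample. Of 7 macrophage markers 4 were lower, with sums of 72.8 to 116 and 37.0 to 58.4, and of 8 stellate cell and fibroblast markers 1 was higher and 4 lower, with sums of 86.4 to 103 and 29.1 to 48.7. Most of the latter sums was Dcn, at 75.8 to 96.4 and 17.8 to 37.7. The other 7 stellate cell and fibroblast markers summed to 6.95 to 10.998 and 10.994 to 16.1. Among those 7, Lrat, Des and Pdgfrb were called lower, at log2FC of -1.83, -0.85 and -0.76, and Col1a1 was called higher, at 1.58. The sums were 9.27 to 11.9 and 8.92 to 22.7 for neutrophil markers, 54.8 to 66.5 and 48.1 to 51.5 for endothelial markers, and 2.33 to 2.93 and 1.89 to 2.19 for cholangiocyte markers. The part of these cell types in the differences of the members was not tested.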

How the data were processed

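Total RNA of 3 normal livers and 3 liver tumors was measured on 1-color arrays. The authors deposited, for each array, the Feature Extraction output (version 10.7.3.1 by the file headers, 12.0.3.1 by the submitters' processing notes), in which background subtraction and spatial detrending give a processed signal intensity, with the mean signal and local background of each spot. They also deposited a table of the ratio of that signal to the 75th percentile of the array, on a linear scale. Its columns differed from the ratio over all spots, controls included, by at most 0.112% for values above 5, and their medians lay between 0.08 and 0.11.

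The processed intensities were divided by that percentile and taken to log2. Control and outlier spots were left out and spots of a probe averaged. Of 55681 probes, the 24900 that were well above background in every sample of either group were tested with limma 3.58.1 (lmFit, eBayes; R 4.3.3); p-values were two-sided, adjusted by Benjamini-Hochberg over all probes tested and called under 0.05. A gene was read from its tested probe with the highest mean log2 value, and 8 of the 34 members had several probes. Where no array of a group was above background, the fold is a lower bound, computed against the dimmest signal well above background on each array, or against the probe's own signal if that was higher, averaged over the group. Probes were named through RefSeq GRCm38.p6 by accession (27235), symbol (3581) or synonym (565), or kept the design's name (24300). Python 3.11.15, pandas 2.3.3, numpy 2.4.6 and matplotlib 3.10.9 were used for tables and plots, and the fit was tested on simulated data. The number of arrays limits the precision.

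Members and lists were chosen with earlier results of these data known. All members are named. Of each list, the called genes with the 3 largest rises and 3 largest falls among those above background on all 6 arrays are named, and Cdkn1a in any case. Outside this rule, Jun, Gadd45g and Gadd45b, none of them called, were picked for their values in normal liver 1. Plk1, Psrc1, Cnot2, Cnot3 and Cnot6 are also named outside it. The values of 1 gene of the lists are not reported here. Alternatives were normexp with an offset of 50, quantile and spike-in scaling, another percentile, 2 filters, the deposited ratios, the replicate block, a trend, the mean of probes, the methods' t-test and each replicate left out.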

Additional observations from a re-analysis of the deposited data

How the results depend on the processing

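The members called were 15, and 8 without the filter on dim probes, 5 with the methods' t-test unpaired and 0 with it paired, both after Benjamini-Hochberg adjustment. The probes called were 8239, and 4674 without the filter, 5011 with spike-in scaling, 5263 and 0 with the unpaired and the paired t-test, and 4952 without normal liver replicate 2. Without the filter the immediate early genes called went from 15 to 9 and the upstream regulators from 8 to 5. The Ccr4-Not list went from 0 to 1 with normexp, with the replicate block and with the filter of all 6 arrays, and to 2 with quantile normalization. The cause of these shifts was not tested. With each replicate left out in turn, the members called were 10 to 13, the members not overlapping 22 to 25, the probes called 4952 to 7172, the immediate early genes 11 to 15, the other p53 targets 8 to 12, the upstream regulators 6 to 8, the paralogs 2 to 3 and the Ccr4-Not list 0. The 9 members Mdm2, Btg2, Btg3, Sertad1, Trp53inp1, Bax, Tnfrsf10b, Phlda3 and Zmat3 stayed called each time, and Ccng1, Gadd45a, Sesn2, Aen, Polk and Fas each lost the call without some samples, 4 or 5 of the 6. Besides the t-tests, which kept 5 and 0, Mdm2 lost its call without the filter, as did Aen, Ccng1, Fas, Gadd45a, Polk and Sesn2, Polk and Gadd45a lost theirs with normexp, and Tnfrsf10b could not be tested with the filter of all 6 arrays. No called member changed sign under any alternative tried. The evidence that replicate numbers pair the samples was weak: same-numbered samples had correlations of deviations of 0.069, 0.132 and 0.051, those of other numbers ran from -0.139 to 0.055, and not every sample correlated best with its own number. With the replicate block 14 members were called, of which 12 were shared with the 15, Aen, Ccng1 and Gadd45a being lost and Apaf1 and Tob1 gained, and 7021 probes. Dim probes limit what can be said of Eda2r, Rrm2b, Pmaip1 and Apaf1.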

Other observations

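Btg2 and Phlda3, which rose 18.0-fold and 17.1-fold, both lie on chromosome 1, in a stretch from Mdm4 to Phlda3 (chromosome 1, 132986105 to 135769134, GRCm38.p6). Of the 91 genes annotated in that stretch, 33 were tested and 11 called, 7 higher and 4 lower, and the median log2FC was -0.03. The share called was 33.3%, against 34.2% of all genes tested. The ends of the stretch were set by members, after their values had been seen. Beside Btg2 and Phlda3, 9 genes were called, and those with the largest changes are named. Optc rose by 2.83, Golt1a by 1.64 and Cyb5r1 by 1.38 on the log2 scale, and Etnk2 fell by 0.99. Among the members with a promoter window, a p53 decamer was found for 6 of the 11 genes called higher (Aen, Bax, Ccng1, Gadd45a, Mdm2 and Polk) and for 4 of the 13 not called (Ei24, Ppm1d, Sesn1 and Trp53). Tnfrsf10b, Trp53inp1 and Zmat3, also called higher, had no window, and Btg2 and Phlda3 had a window without a decamer. The genes differed in their number of windows, and a link between decamer and rise was not tested.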
